A study of Mus musculus with 9 samples.

Results

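Tetraspanins are small proteins that cross the membrane 4 times and gather integrins, proteases, immunoglobulin-family proteins and signalling receptors into assemblies often called the tetraspanin web. The family was taken here as the 31 mouse genes listed under that name, and 30 of them had a feature on the array, out of 19505 genes measured. Members were chosen by gene symbol, and no member had more than 1 feature, so the rule of keeping the feature of highest mean left out none. Tspan7 was not analysed here. The rule also names Tspan3 and Tspan4, which had been singled out because their difference between the groups of these arrays was known, so the values of this pair are a description and not independent support for a change.

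All 9 samples were back skin of C57BL/6J mice aged 8 weeks, to which 5% imiquimod cream, a Toll-like receptor agonist that induces psoriasis-like dermatitis, had been applied daily for 7 days. In the stretch group (n = 5) the skin had in addition been under traction from a glued plastic device elongated by 10 mm on the first day, and in the no-stretch group (n = 4) it had not. Whether non-stretched skin carried the device is not stated, nor is it stated that every sample is a different mouse. The p-values therefore reflect only sample-to-sample spread, which could be technical. No array without imiquimod was used, so every difference is one within imiquimod-treated skin. The comparison asks which genes differ when imiquimod-treated skin is also stretched.

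In skin, tetraspanins are known for different tasks. CD9, CD81 and CD151 sit in keratinocyte membranes, where CD151 holds the laminin-binding integrins of hemidesmosomes and its loss can cause blistering in humans. CD37 and CD53 belong to leukocytes, CD63 marks late endosomes, melanosomes and secreted vesicles, and the TspanC8 members escort the protease ADAM10 and steer which proteins it cleaves.

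Values are deposited log2 expression values, and a change is the mean log2 value with stretch minus that without. The 4 keratinocyte-defining genes Krt1, Krt5, Krt10 and Krt14 lay at the 99.7th percentile of all genes or above, with Krt1 next to the ceiling of the table (19.93), and the 6 skeletal muscle markers lay at the 94.1st percentile or above. The mean of these 6 was lowest in stretch replicate 1, at 14.24, and lay between 15.55 and 16.24 on non-stretched arrays. Whether this bears on other values of that array was not tested. By median correlation across genes, no-stretch replicate 3 stood furthest from the rest (0.975), and its array weight (0.58) and that of stretch replicate 1 (0.55) were the smallest. Several tissue marker lists had negative medians: the median change was -0.98 over 5 suprabasal keratinocyte genes, -0.82 over 5 fibroblast genes, -1.09 over 6 adipocyte genes and -1.16 over 7 hair follicle genes, of which 1 gene, in the hair follicle list, passed the test described below. That is 14.3% of the hair follicle list, against 0.246% of all genes. The lists themselves were not tested, and the mean levels of the suprabasal list overlapped between the groups (14.59 to 15.87 with stretch and 15.55 to 16.38 without). Mean levels of the fibroblast, adipocyte and hair follicle lists did not overlap, nor did those of the mast cell, Schwann cell and melanocyte lists, also lower with stretch. By contrast, medians of the basal keratinocyte and endothelium lists were positive (0.24 and 0.40), and their mean levels overlapped. The highest stretched array was at 16.79 for fibroblasts, 10.18 for adipocytes and 5.23 for hair follicles. The lowest non-stretched array was at 16.88, 10.24 and 5.57 in the same order. The part of these lists in the values of the family was not tested. In bulk skin, fewer cells of a type and less RNA per cell cannot be told apart.

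These start regions are shown because they belong to the pair with the largest changes, to Cd151, a chromosomal neighbour of Tspan4, and to the one other member with the same AP-1 motif. They are RefSeq windows of 300 bases on GRCm38.p6, from 250 before to 50 after an annotated start, and 29 of the 31 family genes had one. Capitals mark the AP-1 motif TGANTCA and the Sp1 motif GGGCGG on either strand, which do not overlap here.
Tspan4 start 1, chr7:141474986-141475285, plus strand: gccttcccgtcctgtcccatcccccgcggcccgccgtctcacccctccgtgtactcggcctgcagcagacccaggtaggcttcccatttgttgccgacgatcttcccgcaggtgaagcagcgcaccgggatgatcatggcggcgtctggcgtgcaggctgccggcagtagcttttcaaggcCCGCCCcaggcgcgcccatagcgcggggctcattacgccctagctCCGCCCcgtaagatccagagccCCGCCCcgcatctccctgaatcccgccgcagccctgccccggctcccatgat
Tspan4 start 2, chr7:141476130-141476429, plus strand: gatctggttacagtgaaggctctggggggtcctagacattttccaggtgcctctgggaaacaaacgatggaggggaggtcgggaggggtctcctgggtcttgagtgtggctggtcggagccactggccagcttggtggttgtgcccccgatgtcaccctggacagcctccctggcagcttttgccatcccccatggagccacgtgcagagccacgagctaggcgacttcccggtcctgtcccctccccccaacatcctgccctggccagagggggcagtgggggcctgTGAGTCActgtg
Tspan3, chr9:56161021-56161320, minus strand: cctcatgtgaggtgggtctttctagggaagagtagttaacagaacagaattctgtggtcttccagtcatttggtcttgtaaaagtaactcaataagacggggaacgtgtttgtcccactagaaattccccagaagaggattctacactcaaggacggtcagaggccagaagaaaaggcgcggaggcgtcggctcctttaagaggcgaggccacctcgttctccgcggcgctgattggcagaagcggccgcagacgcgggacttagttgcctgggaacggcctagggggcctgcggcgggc
Cd151 start 1, chr7:141467112-141467411, plus strand: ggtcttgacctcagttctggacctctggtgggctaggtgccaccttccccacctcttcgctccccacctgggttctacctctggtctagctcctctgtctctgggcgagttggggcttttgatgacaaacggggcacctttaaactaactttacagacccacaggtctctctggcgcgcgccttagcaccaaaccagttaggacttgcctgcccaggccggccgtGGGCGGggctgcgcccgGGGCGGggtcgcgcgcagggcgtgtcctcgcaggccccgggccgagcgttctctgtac
Tspan15, chr10:62231169-62231468, minus strand: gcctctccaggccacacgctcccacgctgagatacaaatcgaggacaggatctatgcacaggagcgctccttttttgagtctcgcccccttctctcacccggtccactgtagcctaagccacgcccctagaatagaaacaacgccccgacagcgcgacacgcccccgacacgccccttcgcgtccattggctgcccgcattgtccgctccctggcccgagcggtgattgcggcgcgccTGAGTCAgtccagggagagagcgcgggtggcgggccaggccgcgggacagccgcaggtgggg
The AP-1 motif stands once in the second Tspan4 window, at base 289, and once in the Tspan15 window, at base 239. It was in 2 of the 39 family windows (5.13%) and in 7.81% of all 32851 windows. The Sp1 motif stands 3 times in the first Tspan4 window and was in 17 family windows (43.6%), against 35.7% of all. The Tspan3 window holds neither, nor the CRE motif TGACGTCA, the TEAD motif GGAATG, the STAT motif TTCNNNGAA or the NF-kB motif, each searched on both strands. These matches describe letters and not binding.

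Of the 30 measured members, 2 were higher with stretch past the threshold, Tspan4 and Tspan3, and 0 were lower, by limma's moderated test adjusted over all genes at 0.05. Among all genes 0.082% were called higher and 0.164% lower, 0.246% in all. This pair was named by the rule, so nothing is read from its share. At an unadjusted p under 0.05 there were 7 members higher and 1 lower, which is 26.7% of the family against 13% of all genes (6.92% higher and 6.07% lower). These 8 include Tspan4 and Tspan3, and without that pair there were 5 higher and 1 lower of 28 (21.4%). At an adjusted p under 0.1 the family had the same counts, 2 higher and 0 lower, beside 0.477% and 0.605% of all genes. Groups did not overlap for 2 members, again Tspan4 and Tspan3, so nothing is read from that count, beside 2.38% of all genes higher and 2.15% lower. The median change over the 30 members was 0.11, with 19 above 0, beside a median of -0.0034 over all genes, of which 49.6% were above 0. Without Tspan3 and Tspan4 the median was 0.08, and none of the other 28 members had groups that did not overlap.

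**Figure D1:**
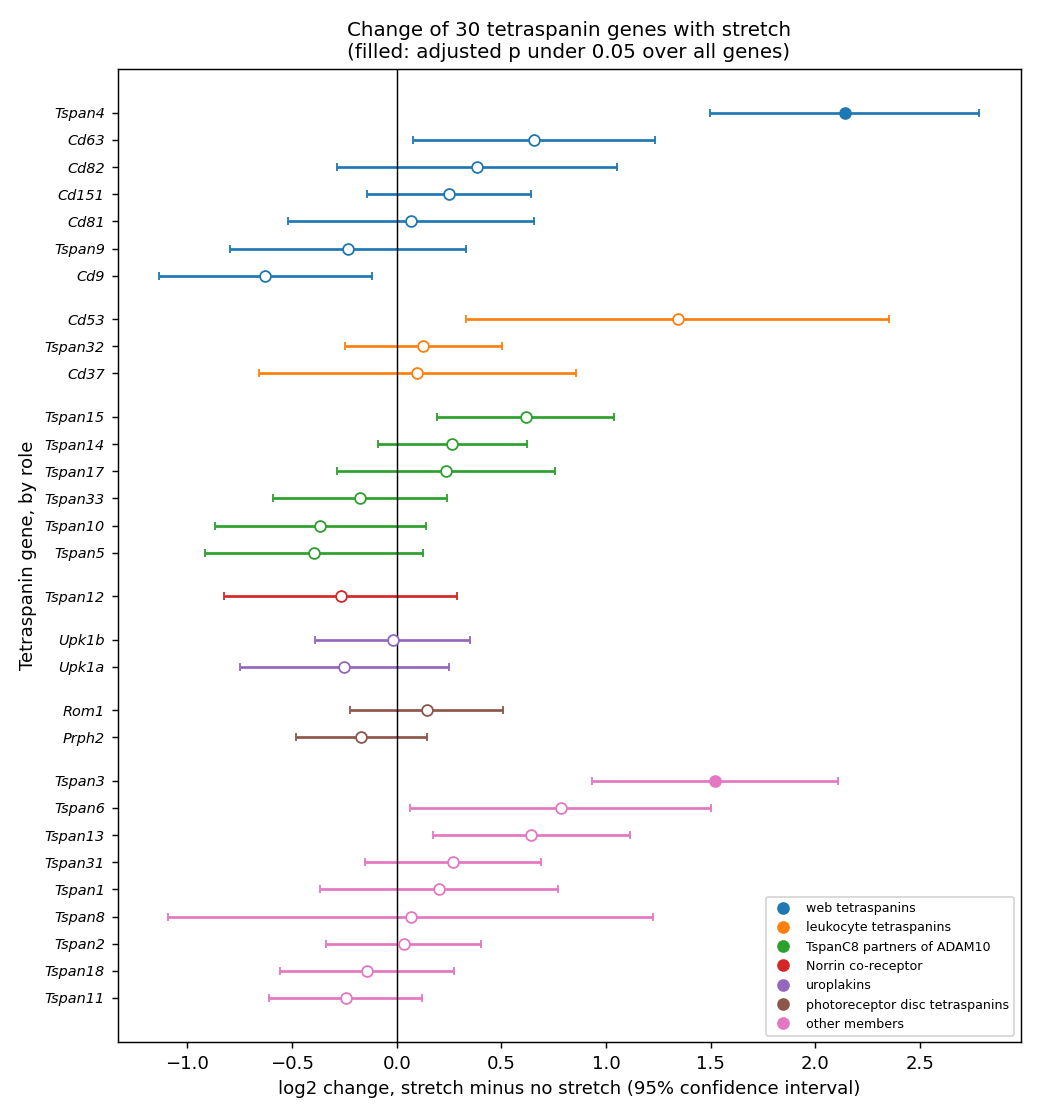
Change of each of the 30 measured tetraspanin genes on the log2 scale (stretch minus no stretch, x axis), grouped by role (y axis), with 95% confidence intervals from the moderated fit on 5 stretch and 4 no-stretch arrays. Filled points passed the threshold of 0.05 over all genes: Tspan4 at 2.14 and Tspan3 at 1.52.

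Tspan4, the tetraspanin used to mark migrasomes, the vesicle-like structures left on the retraction fibres of migrating cells, had the largest change in the family. It was at 9.81, 9.68, 8.53, 9.87 and 9.25 in stretch replicates 1 to 5, and at 7.42, 7.37, 6.69 and 7.67 in no-stretch replicates 1 to 4. Every stretched array lay above every non-stretched one, with replicate 3 the lowest of its group on both sides. The means were 9.43 ± 0.56 (SD, n = 5) and 7.29 ± 0.42 (SD, n = 4), which makes a log2 change of 2.14 (standard error 0.29, 4.41-fold). In the fit over all genes it ranked 11th by p-value and 48th by size of rise. As a description of that rank, its limma adjusted p was 0.021.

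Tspan3, a widely expressed member first described in complex with claudin-11 of myelin, came next. Its levels were 14.08, 14.67, 14.47, 14.66 and 14.73 in stretch replicates 1 to 5 against 12.70, 13.59, 12.28 and 13.45 in no-stretch replicates 1 to 4. The groups did not overlap: the lowest stretched array, replicate 1, was above the highest non-stretched one, replicate 2. Stretched arrays also lay closer to each other (SD 0.26, n = 5) than non-stretched ones (SD 0.62, n = 4), a difference in spread that was not tested. The change was 1.52 with a standard error of 0.27, or 2.86-fold. It ranked 47th of all genes by p-value and 108th by size of rise, just inside the threshold with a limma adjusted p of 0.0497. The next member by p-value, Tspan15, ranked 745th.

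Both calls were lost in some of the fits that left out 1 array. Over all 9 such fits, the calls among all genes ran from 2 to 195. Tspan4 kept an adjusted p under 0.05 in 4 of the 9 fits that left out 1 array, and lost it without stretch replicate 2 (limma adjusted p = 0.074) or 5 (0.0503), or without no-stretch replicate 1 (0.080), 2 (0.054) or 3 (0.068). Tspan3 kept it in 3 of 9. It lost it without stretch replicate 2 (0.135), 4 (0.108) or 5 (0.096), or without no-stretch replicate 1 (0.165), 2 (0.054) or 3 (0.125). The sizes moved less: between 1.94 and 2.37 for Tspan4, and between 1.28 and 1.71 for Tspan3. With no-stretch replicate 3 and stretch replicate 1 left out together, the changes were 1.84 and 1.39 and neither gene passed (both limma adjusted p = 0.064).

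**Figure D2:**
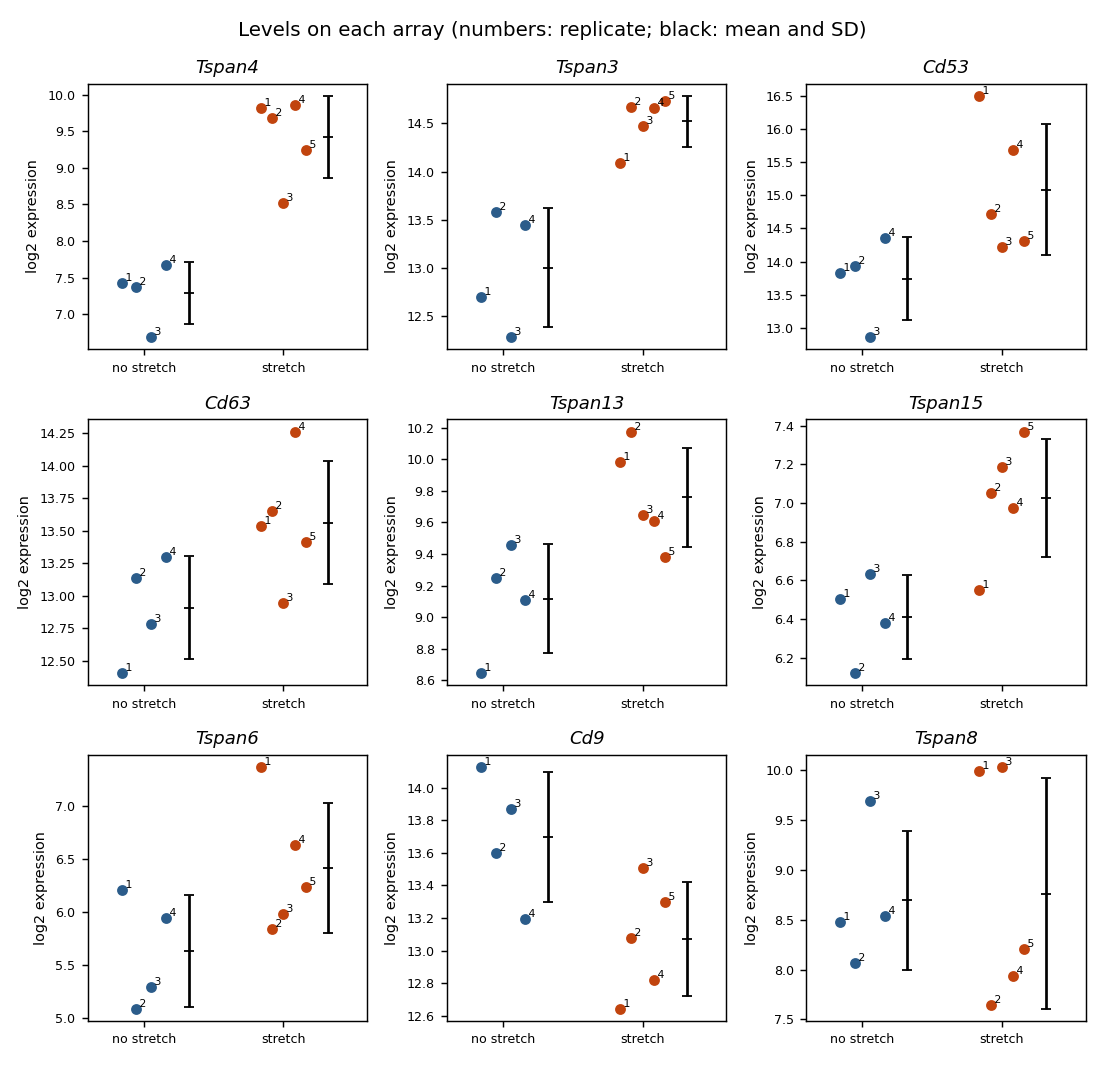
Deposited log2 expression (y axis) of 9 tetraspanin genes on each array, by group (x axis), with the replicate number beside each point and the mean ± SD in black. Tspan4 and Tspan3 are the 2 genes whose groups do not overlap, and no-stretch replicate 3 is the lowest array for Tspan4, Tspan3 and Cd53.

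Several family genes lie next to each other in the genome. Cd151 is separated from Tspan4 by a single protein-coding gene, Polr2l, an RNA polymerase subunit. Cd151 changed by 0.25 (standard error 0.18, limma adjusted p = 0.59) and Polr2l by 0.22 (limma adjusted p = 0.79). On the other side, Chid1 overlaps the end of the annotated Tspan4 gene and changed by 0.27 (limma adjusted p = 0.73). The neighbours of Tspan3, Pstpip1 and Peak1, changed by 0.12 and 0.04 (limma adjusted p = 0.86 and 0.94). Cd81 next to Tspan32, Tspan9 next to Tspan11, and Cd82 next to Tspan18 are further neighbours, and none of these 6 passed.

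The other web tetraspanins, which organise adhesion and vesicle sorting, did not pass. Cd63, the late endosome and melanosome member, was at 13.54, 13.65, 12.95, 14.26 and 13.42 with stretch and at 12.41, 13.14, 12.79 and 13.30 without. Stretched arrays other than replicate 3 lay above all non-stretched ones. Its change was 0.65 (95% confidence interval 0.08 to 1.23, limma adjusted p = 0.32), and it moved between 0.48 and 0.81 as single arrays were left out.

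Cd9, a partner of HB-EGF and of integrins in keratinocytes, had the most negative change in the family. It was at 12.64, 13.08, 13.51, 12.82 and 13.30 with stretch and at 14.12, 13.60, 13.87 and 13.19 without. Non-stretched arrays other than replicate 4 lay above all stretched ones. The change was -0.63 (95% confidence interval -1.14 to -0.12, limma adjusted p = 0.28), the one member with an unadjusted p under 0.05 and a negative sign. Cd9 and Cd81, close relatives often found in the same complexes, gave different values: Cd81 changed by 0.07 (-0.52 to 0.66), a sign that turned under quantile normalization (-0.026). Whether Cd9 and Cd81 differ was not tested.

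Cd151 ranged from 11.12 to 11.82 with stretch and from 10.89 to 11.29 without. Cd82, known as a suppressor of metastasis, ranged from 10.81 to 12.39 and from 11.03 to 11.67, a change of 0.38 (-0.28 to 1.05). Tspan9, a platelet member, changed by -0.23 (-0.80 to 0.33). In all 3 the groups overlapped.

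Among the leukocyte tetraspanins, Cd53, found on nearly all leukocytes, had the third-highest change of the family. It was at 16.50, 14.71, 14.22, 15.69 and 14.31 in stretch replicates 1 to 5 and at 13.83, 13.93, 12.86 and 14.35 in no-stretch replicates 1 to 4. Stretch replicates 1, 2 and 4 lay above all non-stretched arrays, while replicates 3 and 5 lay just below no-stretch replicate 4. The change was 1.34 (95% confidence interval 0.33 to 2.35, 2.53-fold, limma adjusted p = 0.24), and it was 0.99 without stretch replicate 1. Its pooled SD within groups was at the 97.5th percentile of all genes.

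Leukocyte markers are given beside it. Of 5 pan-leukocyte markers 5 had positive changes (median 1.15), none past the threshold; Cd52, a small leukocyte surface glycoprotein, changed by 1.51 and Coro1a, an actin regulator of leukocytes, by 1.15 (limma adjusted p = 0.12 and 0.15). Groups did not overlap for Cd52 and Coro1a, 2 of the 5 markers (40%), against 4.54% of all genes. The mean level of the 5 lay between 10.02 and 10.90 on stretched arrays and between 8.74 and 10.07 on non-stretched ones. In that mean the groups overlapped, with no-stretch replicate 3 lowest in both Cd53 and the list. All 7 measured neutrophil markers and all 6 of monocytes and macrophages also had positive changes (medians 0.59 and 0.56), none past the threshold. Mmp9 was at 1.74, Cxcr2 at 0.96, Cd14 at 2.26 and Itgam at 0.92. Of the 7 neutrophil markers, Ngp and Camp were in the lowest 25% of all genes by level. Groups were apart for 1 of these 7 (14.3%), Mmp9, and for 0 of the 6 of monocytes and macrophages. The part of these cells in the Cd53 value was not tested.

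Cd37, the B cell and myeloid member, and Tspan32, a member of blood cells, had changes near 0. Cd37 ranged from 6.16 to 7.97 with stretch and from 6.46 to 7.40 without (change 0.10, 95% confidence interval -0.66 to 0.86), lowest in replicate 3 of either group, and its sign turned without no-stretch replicate 3 (-0.13). Tspan32 changed by 0.13 (-0.25 to 0.50). Of 5 measured B cell markers, 3 were in the lowest 25% of all genes by level (Cd79a, Ms4a1 and Pax5), and none passed. Blk, a B cell kinase, was at -0.65 and Ms4a1, which encodes CD20, at 0.37. All 6 measured T cell markers had negative changes, from -0.90 to -0.0077 (median -0.31), none past the threshold, with Cd4 at -0.90 and Zap70 at -0.31. Zap70 was in the lowest 25% of all genes by level.

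**Figure D3:**
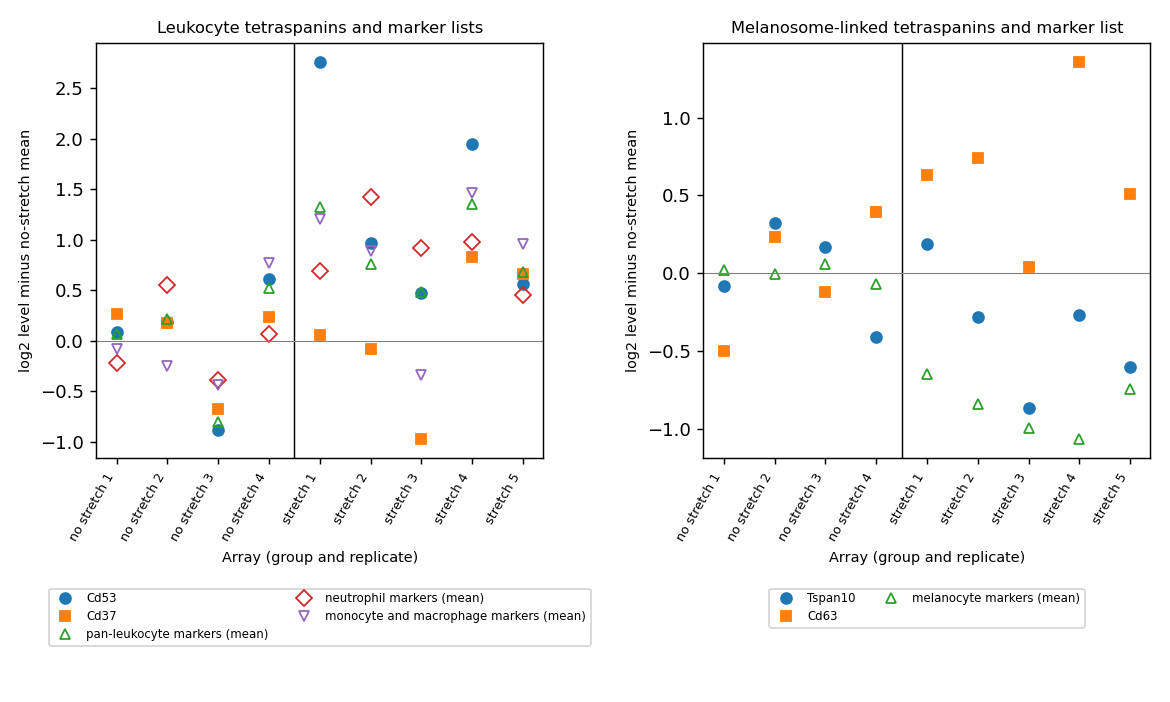
Levels on each array (x axis: group and replicate) relative to the no-stretch mean on the log2 scale (y axis), for Cd53 and Cd37 beside the means of pan-leukocyte, neutrophil and macrophage marker lists (left) and for Tspan10 and Cd63 beside the mean of melanocyte markers (right). Cd53 and the pan-leukocyte mean are both lowest in no-stretch replicate 3, while melanocyte markers lie below 0 on all 5 stretched arrays and Cd63 above it.

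The 6 TspanC8 members, which carry ADAM10 to the surface and set its substrate choice, split evenly, with 3 positive, 3 negative and none past the threshold. Tspan15, the member tied to cleavage of N-cadherin, was at 6.55, 7.05, 7.18, 6.97 and 7.37 with stretch and at 6.51, 6.12, 6.63 and 6.38 without. Stretched arrays other than replicate 1 lay above all non-stretched ones. Its change was 0.62 (95% confidence interval 0.19 to 1.04, limma adjusted p = 0.21), between 0.52 and 0.73 as single arrays were left out.

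Tspan14 ranged from 10.16 to 10.66 with stretch and from 9.90 to 10.26 without, with stretched arrays other than replicate 3 narrowly above all non-stretched ones. It changed by 0.27 (-0.09 to 0.62) and Tspan17 by 0.24 (-0.28 to 0.76). Tspan5, which with Tspan17 is linked to Notch cleavage, changed by -0.39 (-0.92 to 0.13). Tspan33, of activated B cells and red cell precursors, changed by -0.18 (-0.59 to 0.24), at a low level (29.5th percentile of all genes). None of these 4 had groups apart.

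Tspan10, also called oculospanin and expressed by pigment cells, was at 4.52, 4.05, 3.47, 4.06 and 3.73 with stretch and at 4.25, 4.65, 4.50 and 3.92 without. The groups overlapped through stretch replicate 1 and no-stretch replicate 4. Its change was -0.36 (95% confidence interval -0.87 to 0.14, limma adjusted p = 0.54), at a low level (29.2nd percentile of all genes). Of 7 melanocyte markers 6 were negative and 2 fell past the threshold: Dct, an enzyme of melanin synthesis (-2.25, limma adjusted p = 0.031), and Pmel, the melanosome fibril protein that CD63 helps to sort (-1.40, limma adjusted p = 0.026). These 2 are 28.6% of the list, against 0.164% of all genes called lower. Groups were apart for 3 of the 7 (42.9%), all lower, against 4.54% of all genes. Their mean level lay between 5.20 and 5.61 with stretch and between 6.19 and 6.32 without, and Tyr and Slc45a2 were in the lowest 25% of genes. Cd63 and the melanocyte list thus had changes of opposite sign on these arrays; the part of melanocytes in the Tspan10 value was not tested.

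Of the remaining members, Tspan6, an X-linked member reported in human cells to restrain antiviral signalling, was at 7.37, 5.84, 5.98, 6.64 and 6.24 with stretch and at 6.20, 5.08, 5.29 and 5.94 without. The groups overlapped, with stretch replicate 1 well above the rest. Its change was 0.78 (standard error 0.33, limma adjusted p = 0.34), and it was 0.54 without that array.

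Tspan13, also called NET-6, was at 9.98, 10.17, 9.64, 9.61 and 9.38 with stretch and at 8.65, 9.25, 9.46 and 9.11 without. The groups met only where stretch replicate 5 fell below no-stretch replicate 3. The change was 0.64 (95% confidence interval 0.17 to 1.11, limma adjusted p = 0.23), between 0.49 and 0.76 without single arrays.

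Tspan8, an epithelial member associated with tumour spread, varied most within groups in the family, with a pooled SD at the 98.6th percentile of all genes. It was at 9.99, 7.65, 10.03, 7.94 and 8.205 with stretch and at 8.48, 8.07, 9.69 and 8.54 without. Stretch replicates 1 and 3 and no-stretch replicate 3 stood well above the other 6 arrays, whatever the group. The change was 0.07 with an interval from -1.09 to 1.23, which spans a 2-fold difference in either direction.

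Tspan31, amplified in human sarcomas, changed by 0.27 (-0.15 to 0.69), Tspan11 by -0.24 (-0.61 to 0.12) and Tspan2, of neurons and oligodendrocytes, by 0.03 (-0.34 to 0.40). Tspan12, a co-receptor for Norrin in retinal vessels, changed by -0.27 (-0.82 to 0.29). The members with tasks in other tissues did not pass the threshold. The urothelial plaque proteins Upk1a and Upk1b changed by -0.25 and -0.02, the latter positive after quantile normalization (0.017) and median centring (0.014). The photoreceptor disc proteins Prph2 and Rom1 changed by -0.17 and 0.14. Tspan1 and Tspan18 changed by 0.20 and -0.14. Upk1b, Prph2, Rom1, Tspan1 and Tspan18 were in the lowest 25% of all genes by level, where array values compress towards a floor, and detection calls were not used here. Upk1a lay just above that part, at the 26.4th percentile.

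**Figure D4:**
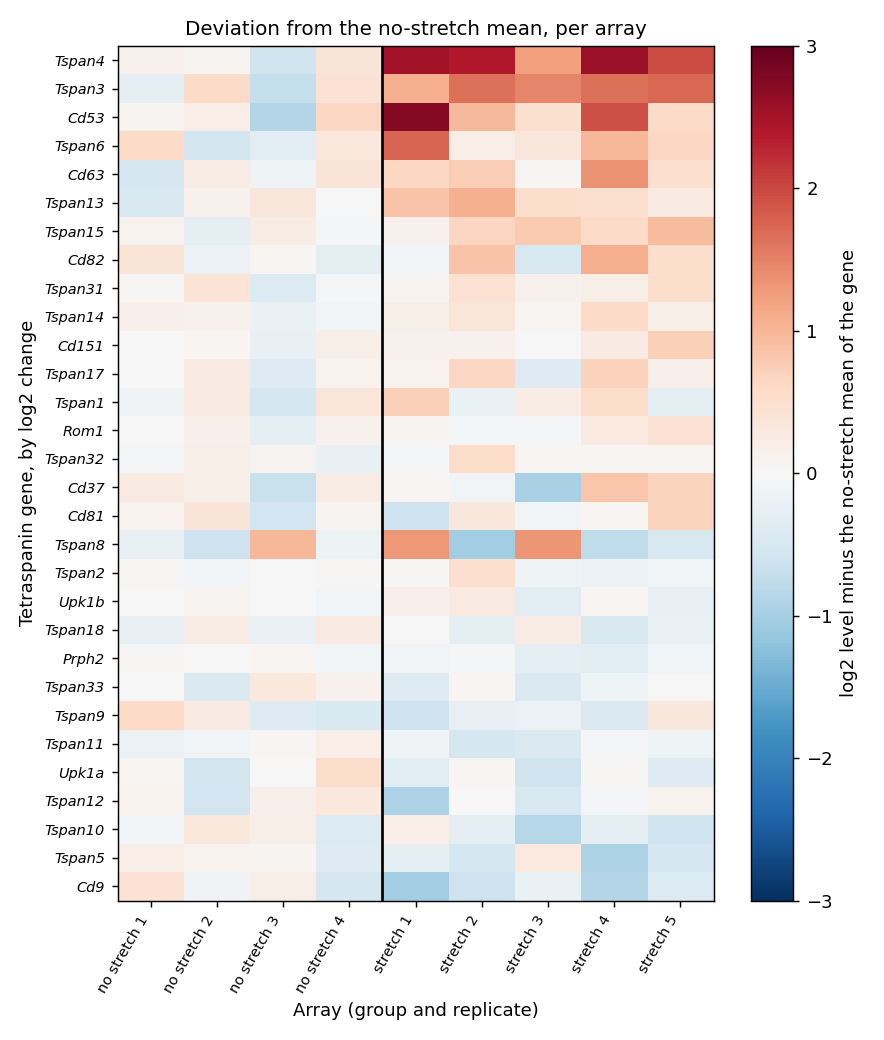
Deviation of each array from the gene's no-stretch mean on the log2 scale (colour), for 30 tetraspanin genes ordered by change (y axis) and 9 arrays (x axis, no stretch left of the line). The 7 genes at the top, from Tspan4 to Tspan15, are above 0 on all 5 stretched arrays, as are Tspan31, Tspan14 and Cd151. The order is set by these same values. Tspan8 is high in stretch replicates 1 and 3 and no-stretch replicate 3.

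Arrays differed in how often they held a member's lowest value. No-stretch replicate 3 was the lowest of all 9 arrays for 9 of the 30 members, stretch replicate 3 for 6, and stretch replicate 5 for 0. The mean over the family lay between 8.04 and 8.33 on stretched arrays and between 7.87 and 8.07 on non-stretched ones, with replicate 3 lowest in either group. That mean includes Tspan4 and Tspan3, which were singled out for their difference between the groups. It was not computed without them, so nothing is read from its difference between the groups. Without no-stretch replicate 3 the family median change was 0.05 and 0 members passed. That loss was not particular to this array: 0 members also passed without stretch replicate 2 or 5, or without no-stretch replicate 1 or 2.

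**Figure D5:**
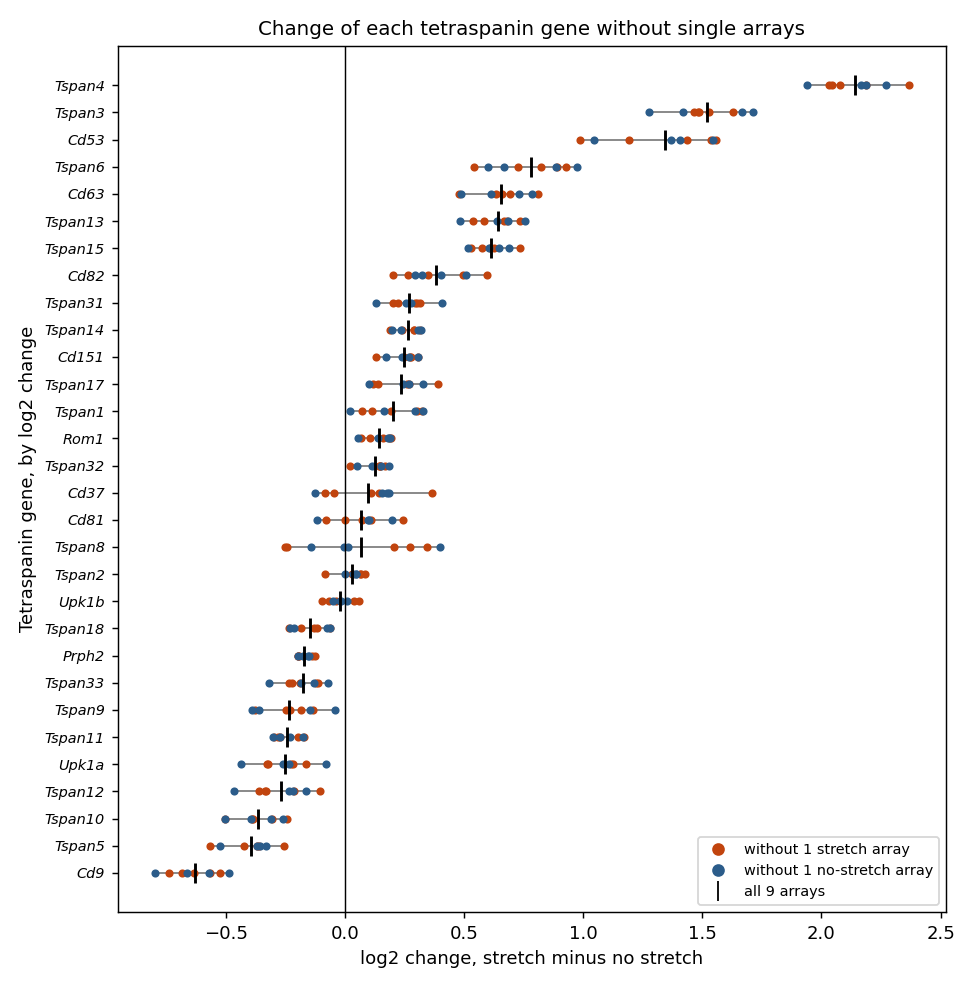
Change of each tetraspanin gene (x axis, log2, stretch minus no stretch; y axis, genes ordered by change) in the fits that left out 1 array, coloured by the group of that array, with the value on all 9 arrays as a black bar. Tspan4 and Tspan3 stay between 1.28 and 2.37, and Cd81, Cd37, Upk1b, Tspan2 and Tspan8 cross 0.

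None of the 44 measured partner genes passed the test, and at an unadjusted p under 0.05 there were 12 higher and 5 lower, 38.6% of them against 13% of all genes. The partner list was written with earlier results of these data known. The 5 laminin-binding integrin chains, held by CD151, all had positive changes (median 0.75); Itga7 was at 0.85 and Itga6 at 0.77 (limma adjusted p = 0.16 and 0.30). Igsf8, the EWI protein that binds CD9 and CD81 directly, changed by 1.03 (standard error 0.20), with groups that did not overlap, and lay just outside the threshold (limma adjusted p = 0.054). Its relative Ptgfrn, which also binds CD9 and CD81, changed by -0.23, and the median of the 4 EWI genes was -0.12. In non-overlap, 6 of the 44 partners (13.6%) had groups apart, against 4.54% of all genes.

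Adam10 itself, named here for its place in the list and not by its p-value, changed by 0.37 (-0.03 to 0.77), and the 13 genes of ADAM10 and its substrates had 6 positive and 7 negative changes. Axl, a receptor tyrosine kinase shed by ADAM10, was at -0.91 with groups that did not overlap (limma adjusted p = 0.12), and the chemokine gene Cxcl16 was at 0.62 (limma adjusted p = 0.31). Hbegf, the growth factor whose membrane form binds CD9, changed by 1.75 (0.87 to 2.63, limma adjusted p = 0.099), while Tgfa changed by -0.0032. Among other surface partners, Epcam was at -1.01 and Icam1 at 0.59 (limma adjusted p = 0.22 and 0.17). In the endosomal list Sdcbp, which encodes syntenin, was at 0.99 and Tsg101, of the ESCRT machinery, at -0.53 (limma adjusted p = 0.25 and 0.23). The Norrin receptor chains Lrp6 and Lrp5 were at -0.47 and -0.27. The uroplakins Upk3a and Upk3b, in the lowest 25% by level, were at 0.16 and -0.12.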

How the data were processed

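RNA of back skin (6 ug, labelled as biotinylated cRNA) was hybridised to 9 arrays, per the labels' protocols. Values are deposited log2 expression values for 22206 features, made by the authors with RMA and the Transcriptome Analysis Console, per the submitters' processing notes, which name no versions. RMA compresses low values, so changes of dim genes are understated. Build, annotation and filters were not stated. Platform annotation named 19572 features, which represent 19505 genes by the feature of highest mean. Titles gave the groups.

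A model with group alone was fitted over all genes by lmFit and eBayes (limma 3.58.1, R 4.3.3), with two-sided p-values adjusted by Benjamini-Hochberg. The test was checked on simulated data. Precision is limited by the number of arrays: over all genes the median standard error was 0.21. Members, role groups, partner lists and marker lists were chosen with earlier results of these data known. The text names each measured member, its chromosomal neighbours, and of each partner list and of the leukocyte and melanocyte lists the genes past the threshold and the 2 of smallest p-value; exceptions are stated or are defining markers of a cell type. The genes of 1 partner list are not reported here. Promoter windows are from RefSeq. Alternatives changed the normalization, the genes and features kept, the variance estimate, array weights, a replicate block, the threshold and the arrays included.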

Additional observations from a re-analysis of the deposited data

Results flagged for a closer look

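Dixon's criterion was applied to 126 groups of arrays, 1 for each named gene and group, and set 1 array apart in 5 of them; chance alone sets 1 apart in about 5% of groups. Cd37 was at 6.46 in no-stretch replicate 3, below 7.32 in the nearest array, a gap of 0.912 of the group's range. Tspan32 was at 6.20 in stretch replicate 2, above 5.71 in the nearest, a gap of 0.822 of the range. Adam10 was at 12.73 in no-stretch replicate 1, above 12.13 (0.872 of the range). Coro1a was at 10.59 in stretch replicate 4, above 9.68 (0.805 of the range), and Pstpip1, the neighbour of Tspan3, was at 9.67 in the same array, above 8.89 (0.731 of the range).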

How the results depend on the processing

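Across the 11 alternatives other than single omissions, Tspan4 and Tspan3 passed as the 2 higher members in 9, and no member was lower past the threshold in any. The exceptions were adjustment over all features, unnamed ones included, with 1 higher member (Tspan3 at limma adjusted p = 0.055), and the joint omission of no-stretch replicate 3 and stretch replicate 1, with 0 higher members and 4 with groups that did not overlap. Of the 9, the threshold of 0.1 reuses the main fit, so both genes had to pass there. Averaging the features of a gene left the values of the members unchanged, since none has more than 1. The pair was chosen from these same values, so the 9 are not independent support for it. Leaving out single arrays gave 0 to 2 higher members and 2 to 5 whose groups did not overlap. The latter count can only stay or rise when an array is left out, because fewer arrays are compared. Correlations of deviations between samples of the same replicate number ran from -0.06 to 0.34. Only replicate 4 correlated best with its own number, and these values do not settle whether the numbers pair the samples. With the replicate number as a block 2 members were higher and 0 lower, while calls over all genes went from 48 to 221. Over all genes, calls numbered 105 without the 25% of genes lowest in level, 157 with array weights, 211 at an adjusted p of 0.1, 15 under the joint omission, and 2 to 195 without single arrays. Members near 0 changed sign, the cause not tested: Cd81 to -0.026 after quantile normalization and -0.079 with the block, Upk1b to 0.017 after quantile normalization, 0.014 after median centring and 0.040 with the block, Cd37 to -0.043 with the block and -0.12 under the joint omission, Tspan1 to -0.10 under that omission, and Tspan8 to -0.021 with array weights. Without single arrays the changes ran from -0.12 to 0.24 for Cd81, -0.13 to 0.37 for Cd37, -0.094 to 0.059 for Upk1b, -0.084 to 0.084 for Tspan2 and -0.25 to 0.40 for Tspan8. The number of arrays and the within-group spread limit what could be seen, and signal over background was not assessed.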
